A study of Mus musculus with 5 samples.

Results

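Glycolysis and hypoxia genes were followed as a set of 32 genes, out of 27998 in the deposited count matrices, listed by name rather than by a threshold on values, with earlier results of these data known: 16 glycolytic enzymes, 4 glucose and lactate transporters and 12 genes of the hypoxia response. All 32 were found in the matrices. The study sorted mouse γδ T cells by flow cytometry and profiled them with the Chromium Single Cell 3' v2 kit, which counts each captured mRNA molecule once by a unique molecular identifier (UMI). There were 5 libraries and 1 library per group, so no value below has a replicate and no difference was tested. Vγ4+ and Vγ6+ cells of ear skin, Vγ6+ cells of peripheral lymph node (pLN) and Vγ6+ cells of thymus each came from C57BL/6 mice aged 8 weeks. The fifth library was a pool of Vγ6+ cells that was not demultiplexed, from pLN of TcrdCreER mice, thymus of ACT-FLPe mice and ear skin of TcrdH2BeGFP mice aged 8 to 10 weeks. TcrdCreER mice carry an inducible Cre and TcrdH2BeGFP mice a nuclear GFP at the locus of the δ receptor chain, and ACT-FLPe mice express a FLP recombinase from an actin promoter. Whether Cre was induced, and how many animals each library holds, is not given in the sources used here. Ear skin was digested with collagenase IV for 75 minutes at 37 °C and thymus was incubated with antibodies and complement for 30 minutes at 37 °C, while lymph nodes were pressed through mesh with no incubation stated. Tissue and preparation therefore cannot be told apart.

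Glycolysis splits glucose into pyruvate through a fixed chain of enzymes, and lactate dehydrogenase then turns pyruvate into lactate and renews the NAD+ that the chain needs. When oxygen is short, prolyl hydroxylases of the Egln family stop marking the α subunits of hypoxia-inducible factor (HIF) for destruction, and HIF then raises the transcription of many of these enzymes together with genes for angiogenesis, mitophagy and lipid storage. In T cells, antigen receptor and cytokine signals can also raise HIF-1α and glycolysis with oxygen present, and γδ T cells that make IL-17 are known to differ in fuel use from those that make interferon γ.

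HIF binds DNA at short sites with the core ACGTG or GCGTG, so the stretches before the start sites of several members are shown first. They come from RefSeq (GRCm38.p6), each written 5' to 3' on the strand of its gene, with matches to either core on either strand in capitals. CACGT is ACGTG read on the other strand, CACGC is GCGTG, and CACGTG therefore holds a match on each strand. Hk2, the enzyme gene with the largest ratio of skin to lymph node, is given for the 250 bases before its start (chr6:82774455-82774704, minus strand, no annotated gene), with matches 226 and 52 bases before the start.
Hk2: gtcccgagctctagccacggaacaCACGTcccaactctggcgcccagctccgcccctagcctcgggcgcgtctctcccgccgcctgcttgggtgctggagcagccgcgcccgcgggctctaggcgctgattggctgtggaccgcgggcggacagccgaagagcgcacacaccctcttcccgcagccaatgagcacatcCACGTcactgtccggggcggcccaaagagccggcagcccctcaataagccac
Hilpda has more than 1 start site, and the 25 bases around the match 43 bases before its second start are given (chr6:29272573-29272597, plus strand, in an untranslated region of Hilpda).
Hilpda: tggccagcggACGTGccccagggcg
For Ldha, P4ha1, Hif1a and Slc16a1, which follow different patterns across the libraries, shorter stretches are given: chr7:46845730-46845803 for Ldha (plus strand, in an intron of Ldha), chr10:59323240-59323295 for P4ha1 (plus), chr12:73907757-73907836 for Hif1a (plus, in introns of Hif1a and Gm15283) and chr3:104638490-104638569 for Slc16a1 (plus).
Ldha: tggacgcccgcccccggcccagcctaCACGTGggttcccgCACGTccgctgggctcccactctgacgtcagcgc
P4ha1: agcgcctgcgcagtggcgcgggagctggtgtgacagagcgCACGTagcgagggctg
Hif1a: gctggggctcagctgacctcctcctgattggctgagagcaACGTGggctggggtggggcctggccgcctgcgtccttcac
Slc16a1: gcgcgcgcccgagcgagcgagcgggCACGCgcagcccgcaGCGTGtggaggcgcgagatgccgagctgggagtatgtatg
Gpi1 (chr7:34230337-34230416, minus) is shown as a member without a match.
Gpi1: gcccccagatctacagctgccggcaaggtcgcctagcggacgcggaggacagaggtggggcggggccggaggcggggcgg
In windows of 300 bases, from 250 before to 50 after the start, 46.7% of 27025 genes held at least 1 of the motifs in any of their windows. Of the members, 30 were in the table and 28 of them (93.3%) held a match: 14 of 16 enzymes, 3 of 3 transporters and 11 of 11 hypoxia genes. ACGTG alone was present for 22 of the 30 members against 21.8% of all genes. These 30 members had 45 windows, and the 27025 genes had 32851, so a member had more windows in which to match. The members were listed as glycolysis and hypoxia genes, so these shares are not independent of that choice. Gpi1 and Tpi1 had no match, and Slc2a3 and Bnip3l were not in the table. A match is a run of letters and does not show that a factor binds there. Members with a match include both those that differed several-fold between libraries and those, such as Ldha, that did not.

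After leaving out barcodes with under 200 genes or over 10% mitochondrial UMIs, the libraries held 1178 (skin Vγ4), 687 (skin Vγ6), 1458 (pLN), 2517 (thymus) and 2006 cells (pool), with 793463 to 6607432 UMIs each and medians of 1059 to 2156 UMIs per cell. Levels are given as CPM, the UMIs of a gene per 1000000 UMIs of the kept cells of that library. At these depths 3 UMIs correspond to 3.78 CPM in skin Vγ6 cells, the shallowest library, and to 0.454 CPM in thymus. All intervals are exact 95% intervals for counting error only. The 10 markers of IL-17-producing γδ T cells were detected in every library, at a summed 2369 to 6243 CPM. Other features of the libraries moved with tissue: 10 immediate early genes, which respond to stress and to tissue handling, summed to 6435 and 6483 CPM in skin Vγ4 and Vγ6 cells, 621 CPM in pLN, 2047 CPM in thymus and 6555 CPM in the pool. The 15 cell cycle genes summed to 938, 858, 4940, 3094 and 1504 CPM in the same order. Across the libraries 74 barcodes occurred more than once, and leaving them out changed no call in the comparisons of tissues.

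Levels of the enzymes were close to each other across tissues as a sum, while those of the hypoxia genes were not. The 16 enzymes together made up 3327 CPM in skin Vγ4 cells, 3476 CPM in skin Vγ6, 3762 CPM in pLN, 3370 CPM in thymus and 3496 CPM in the pool. The 4 transporters summed to 82.8, 108.4, 57.5, 97.3 and 79.4 CPM in that order. The 12 hypoxia genes summed to 864.4 CPM in skin Vγ4, 1083 CPM in skin Vγ6, 334.6 CPM in pLN, 685.7 CPM in thymus and 671.1 CPM in the pool, so pLN was lowest and both skin libraries were highest. The data cannot separate a higher level in every cell from more cells that express a gene at all, where only sums are given.

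**Figure D1:**
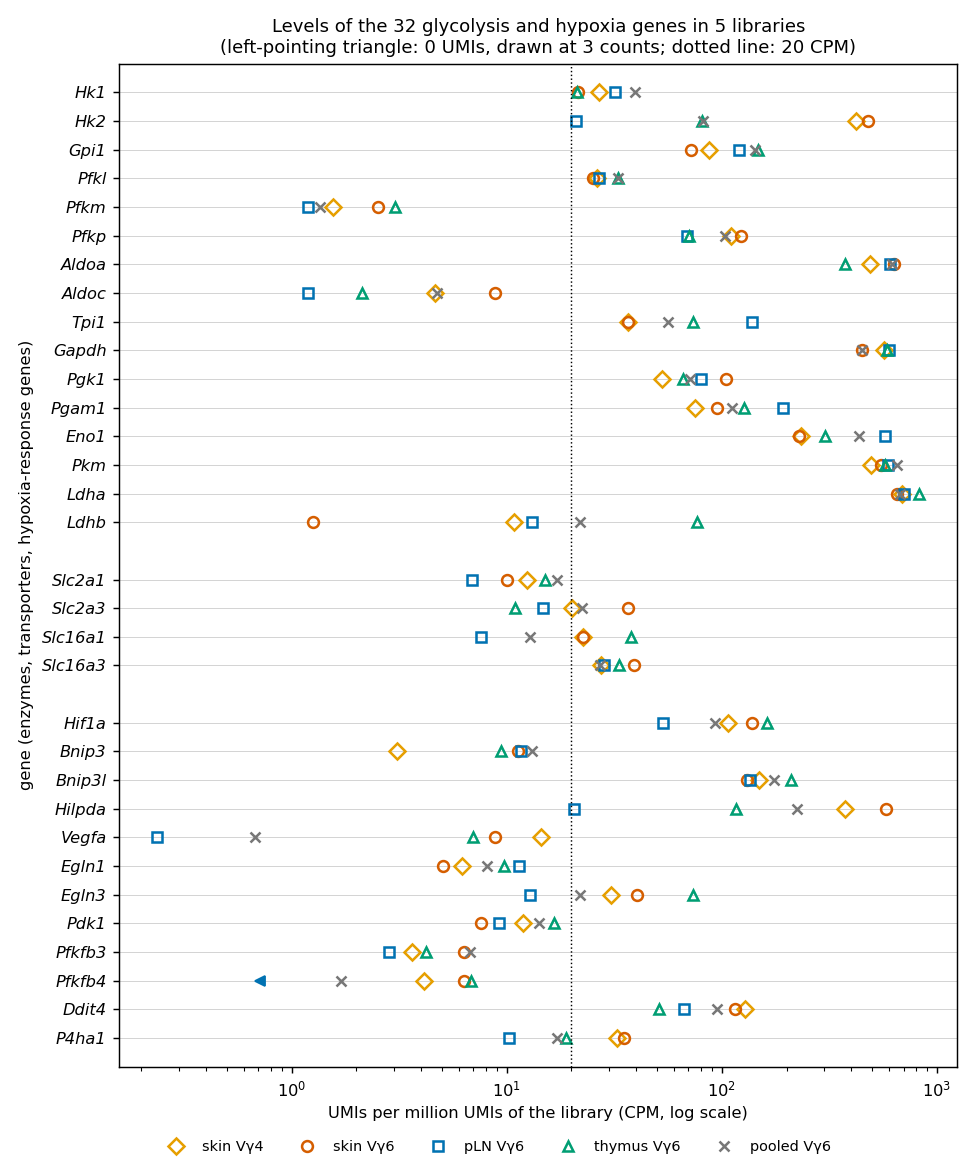
Levels of the 32 members in the 5 libraries in CPM on a log axis, grouped as enzymes, transporters and hypoxia genes; each point is 1 library, a left triangle marks 0 UMIs drawn at the level of 3 counts, and the dotted line is the 20 CPM used as the minimum for a call. Hk2 and Hilpda spread over more than 10-fold between pLN and skin, whereas Gapdh, Pkm and Ldha lie close together.

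Several members varied little or were low throughout. Among enzymes, Gapdh ranged from 448.2 to 597.1 CPM, Pkm from 494.5 to 655.5 CPM and Aldoa from 374.9 to 633.9 CPM over the 5 libraries. Pfkl, the liver-type phosphofructokinase, ranged from 25.2 to 33.0 CPM. Each UMI is 1 molecule captured at its 3' end, so these levels need no correction for length. Among low members, Slc2a1 (GLUT1, the basal glucose carrier) ranged from 6.89 to 17.2 CPM and Pdk1, which restrains the entry of pyruvate into mitochondria, from 7.56 to 16.7 CPM. Bnip3 ranged from 3.10 to 13.2 CPM, Egln1 from 5.04 to 11.4 CPM and Pfkfb3 from 2.85 to 6.76 CPM. Bnip3 and the related Bnip3l are receptors for mitophagy, and Bnip3l was the more abundant throughout, at 131.1 to 209.5 CPM.

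Skin and lymph node Vγ6 cells differed in the first enzyme of the pathway and in hypoxia genes, with no general shift of the enzymes. To be called, a gene had to reach 20 CPM in the library where it was higher and differ at least 2-fold, with an interval of the ratio that excluded 1, and genes that reached 20 CPM in either library count as measured. Of 13 measured enzymes, 1 was called higher in skin and 3 lower, and the median log2 ratio (1 CPM added) of the enzymes was -0.11 against -0.38 for all 5770 genes tested, and it turned to 0.14 with TMM scaling. Over all 22 measured members, 7 were called higher, where 16.0% of all genes tested were, and 3 were called lower, where 30.4% were. With TMM scaling the calls over all genes split into 1185 higher and 1330 lower rather than 922 and 1756, and the median of all genes moved to -0.08. Of the 10 members that did not reach 20 CPM in either library, 3 were enzymes (Pfkm, Aldoc, Ldhb), 1 a transporter (Slc2a1) and 6 hypoxia genes (Bnip3, Vegfa, Egln1, Pdk1, Pfkfb3, Pfkfb4).

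Hk2 (chr6:82725025-82774454 in GRCm38), which encodes the inducible hexokinase that traps glucose in the cell, was at 420.5 CPM in skin Vγ4 cells, 476.4 CPM in skin Vγ6, 20.9 CPM in pLN, 81.1 CPM in thymus and 81.4 CPM in the pool. Both skin libraries were high and pLN was low, with a skin to pLN ratio of 22.8 (interval 18.0 to 29.1). The other hexokinase, Hk1, ranged only from 21.2 to 39.5 CPM over the 5 libraries. The 3 enzymes called lower in skin act later in the chain. Tpi1, triosephosphate isomerase, was at 36.7, 36.6, 138.7, 73.3 and 56.4 CPM in skin Vγ4, skin Vγ6, pLN, thymus and the pool, 3.80-fold lower in skin Vγ6 than in pLN (2.61 to 5.72). Eno1, enolase, was at 233.3, 229.4, 571.4, 303.1 and 435.3 CPM in that order and 2.49-fold lower (2.14 to 2.91). Pgam1, phosphoglycerate mutase, was at 75.0, 94.5, 192.6, 127.0 and 111.8 CPM and 2.04-fold lower (1.61 to 2.62). In all 3, pLN was the highest library and skin the lowest. Pgam1 held the call under 6 of 15 alternative settings and lost it with TMM scaling (ratio 0.584).

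Lymph node cells held the most cell cycle UMIs, whose part in these contrasts was not tested. With cells of 2 or more cell cycle UMIs left out, which kept 608 skin Vγ6 and 413 pLN cells, the skin to pLN ratio was 0.547 for Tpi1 and 0.970 for Pgam1, and neither was called, while Pgk1 was called higher in skin at a log2 ratio of 1.18. Eno1 kept its call under all 15 settings.

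The other 9 measured enzymes were not called. Aldoa, aldolase, had a ratio of 1.05, Pkm, pyruvate kinase, 0.926, Ldha, the lactate dehydrogenase subunit of muscle type, 0.927, and Gapdh, glyceraldehyde-3-phosphate dehydrogenase, 0.751. Ldha was at 685.9 CPM in skin Vγ4, 650.3 CPM in skin Vγ6, 701.3 CPM in pLN, 828.9 CPM in thymus and 675.1 CPM in the pool. Of the 3 enzymes under 20 CPM in both libraries, Aldoc had 7 UMIs in skin Vγ6 and 5 in pLN (ratio 7.43, interval 2.03 to 29.7), Ldhb 1 and 55 (10.4-fold lower, 1.78 to 416.7) and Pfkm 2 and 5 (2.12, interval 0.202 to 12.97). Pfkp, the platelet-type phosphofructokinase, was at 110.2, 123.5, 69.1, 70.4 and 103.0 CPM, with a ratio of 1.79 (1.41 to 2.25), and was called only with TMM or median-of-ratios scaling. Gapdh, Pgk1, Tpi1, Ldha, Pgam1 and Eno1 have processed copies elsewhere in the genome, so the division of reads among near-identical sequences is uncertain for them. As a sum the enzymes were at 0.924 times the pLN level in skin (0.887 to 0.962), a gap within the size by which the scaling moves the enzyme median.

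Transporters and hypoxia genes leaned the other way. Among transporters, Slc2a3 (GLUT3, a high-affinity glucose carrier) was at 20.2, 36.6, 14.7, 10.9 and 22.3 CPM in skin Vγ4, skin Vγ6, pLN, thymus and the pool, with a skin Vγ6 to pLN ratio of 2.48 (1.54 to 3.92). Slc16a1 (MCT1, which carries lactate and pyruvate) was at 22.8, 22.7, 7.60, 38.0 and 12.8 CPM, a ratio of 2.99 (1.58 to 5.48). These were 2 of 3 measured transporters, and Slc16a3 (MCT4, the lactate exporter) was at 27.0 to 39.1 CPM in every library. Both called transporters lie near the 20 CPM minimum in skin and below it in pLN, and Slc2a3 held its call under 10 of 15 settings and Slc16a1 under 12.

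Of 6 measured hypoxia genes, 4 were called higher in skin Vγ6 cells and none lower, with a median log2 ratio of 1.47. Hilpda (chr6:29272488-29275446), whose product coats lipid droplets and restrains lipolysis, was at 373.0 CPM in skin Vγ4, 577.2 CPM in skin Vγ6, 20.7 CPM in pLN, 116.7 CPM in thymus and 224.6 CPM in the pool. Its skin to pLN ratio was 27.9 (22.2 to 35.6), and its order over tissues was that of Hk2. Hif1a, the oxygen-labile HIF subunit, was at 106.6, 138.6, 53.2, 162.2 and 93.2 CPM, a ratio of 2.61 (2.06 to 3.29), and here thymus was the highest library. Egln3, a HIF prolyl hydroxylase that is itself a HIF target, was at 30.5, 40.3, 12.8, 73.9 and 22.0 CPM, a ratio of 3.15 (1.97 to 4.96). P4ha1, a subunit of collagen prolyl hydroxylase, was at 32.6, 35.3, 10.2, 18.9 and 17.2 CPM, a ratio of 3.46 (2.07 to 5.69). Of skin Vγ6 and pLN, only skin, where they were higher, reached 20 CPM of Slc2a3, Slc16a1, Egln3 and P4ha1. Their place among the measured genes is therefore not independent of the direction.

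Ddit4, an inhibitor of mTORC1 that responds to stress and hypoxia, was at 128.8, 114.7, 66.5, 50.9 and 94.6 CPM, a ratio of 1.73 (1.35 to 2.19) that was called only with TMM or median-of-ratios scaling. Bnip3l was not called (0.965). Of hypoxia genes under 20 CPM, Vegfa, the angiogenic growth factor, had 7 UMIs in skin Vγ6 and 1 in pLN (ratio 37.2, interval 4.77 to 1674). Pfkfb4, which sets the level of a phosphofructokinase activator, had 5 UMIs in skin Vγ6 and 0 in pLN, at least 8.84-fold higher when pLN is set to 3 counts. As a sum, the 12 hypoxia genes stood at 3.24 times the pLN level (2.97 to 3.52), and Hilpda carried 577.2 of the 1083 CPM in skin Vγ6.

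In cells thinned to 500 UMIs each, which removes the difference in depth, a Hk2 UMI was found in 20.3% of skin Vγ6, 0.823% of pLN and 3.89% of thymus cells, against 38.9%, 4.94% and 14.8% before thinning. For Hilpda the thinned shares were 22.3%, 0.960% and 6.12%, against 39.0%, 5.42% and 22.1%. No sorted cell type that should lack either gene was available to set the share given by free RNA, and the pLN share is the lowest measured.

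Immediate early genes also differed between these libraries, with sums of 6483 CPM for skin Vγ6 against 621 CPM for pLN, and their part in these ratios was not tested. Splitting each library at the median share of immediate early UMIs, a split chosen after the values had been seen, gave 550.1 and 414.6 CPM of Hk2 in the upper and lower skin Vγ6 cells and 713.3 and 463.2 CPM of Hilpda. The lower skin cells held 3796 CPM of immediate early genes, more than the pLN library. Within pLN the upper and lower cells did not separate, with ratios of 0.988 for Hk2 and 1.01 for Hilpda. In thymus they did, at 1.87 for Hk2 and 2.72 for Hilpda. Keratinocyte markers, 9 genes, summed to 1428 CPM for skin Vγ4 cells, with 271 CPM for skin Vγ6 (Krt5, Krt1 and Krt15 at 0). The pLN, thymus and pool sums were 66.0, 84.3 and 135 CPM. Sfn alone gave 225.6 CPM of the skin Vγ6 sum, against 15.4 CPM for pLN. Krt10 was lower in skin Vγ6 than in pLN (30.25 against 41.8 CPM). Krt14, Perp, Dsp and Lgals7 were each at 7.56 CPM or less in both libraries, and slightly higher in skin Vγ6. The gap between these 2 sums therefore rests mainly on Sfn, and the part of the keratinocyte markers was not tested. The 9 dendritic cell and macrophage markers summed to 39.3, 623, 1471, 122 and 1329 CPM (in pLN, Csf1r, Adgre1 and Cd207 at 0), and with cells carrying 2 or more UMIs of any such list left out, which kept 620 of 687 skin Vγ6 and 800 of 1458 pLN cells, 8 of the 10 calls held and those of Pgam1 and Slc2a3 did not.

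**Figure D2:**
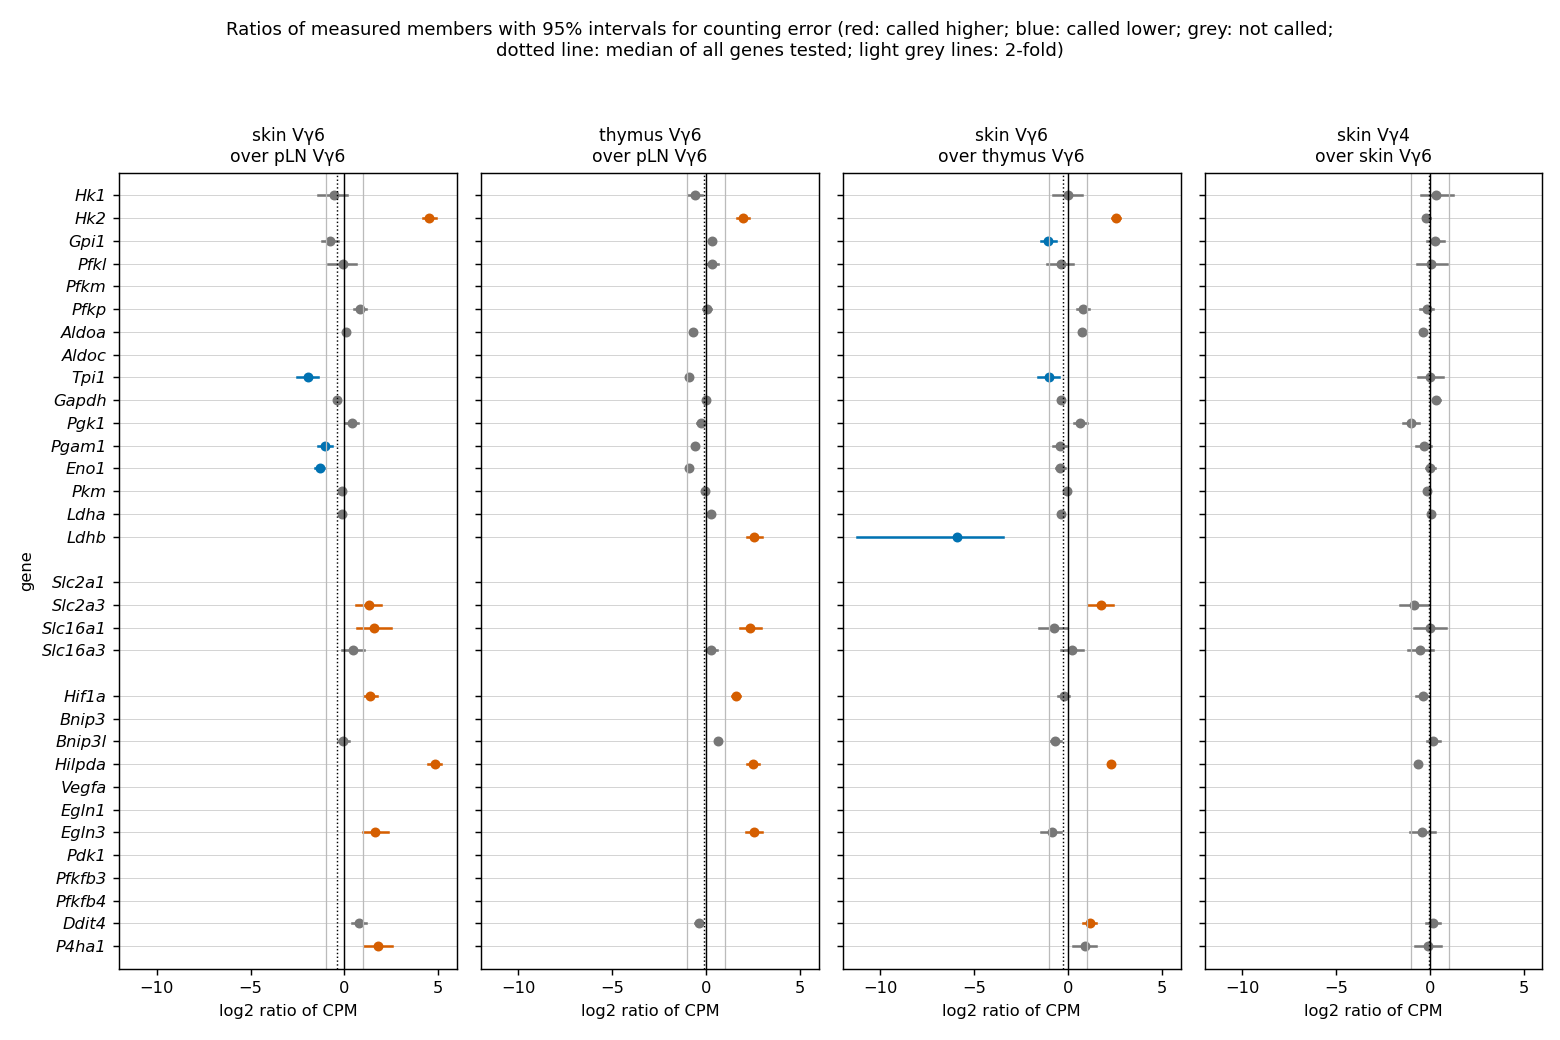
Log2 ratios of the measured members in the 4 comparisons, with 95% intervals for counting error; red marks members called higher, blue those called lower and grey the others, the dotted line is the median of all genes tested and the light grey lines mark 2-fold. Hk2 and Hilpda are the furthest right in skin Vγ6 over pLN, Ldhb is the furthest left in skin over thymus, and no member is coloured in skin Vγ4 over skin Vγ6.

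Thymic and lymph node Vγ6 cells differed in fewer genes than skin and pLN cells did, and the members called were all higher in thymus. This comparison uses the same pLN library as the one above, so a value particular to that library enters both. Of 14 measured enzymes 2 were called higher, of 2 measured transporters 1 and of 5 measured hypoxia genes 3. That gives 6 of 21 measured members, where 11.8% of 5703 genes tested were called higher, and no member was called lower, where 11.3% of genes were. The median log2 ratio was -0.03 for enzymes (0.08 with TMM scaling) and 1.59 for hypoxia genes against -0.13 for all genes tested.

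Ldhb (chromosome 6), the heart-type lactate dehydrogenase subunit, had the largest thymus to pLN ratio of the measured members. It was at 10.9 CPM in skin Vγ4, 1.26 CPM in skin Vγ6, 13.1 CPM in pLN, 77.0 CPM in thymus and 22.0 CPM in the pool, a ratio of 5.90 (4.46 to 7.94). Thymus was thus far above every other library. Hk2 was 3.88 times the pLN level (3.09 to 4.92). Slc16a1 stood at 5.00 times (3.45 to 7.47), Egln3 at 5.76 times (4.34 to 7.78), Hilpda at 5.65 times (4.52 to 7.13) and Hif1a at 3.05 times (2.64 to 3.54). Several enzymes were lower in thymus without reaching 2-fold: Tpi1 was 1.89-fold (1.68 to 2.14), Eno1 1.89-fold (1.78 to 2.00), Aldoa 1.61-fold (1.53 to 1.71) and Pgam1 1.52-fold lower (1.38 to 1.67), with intervals that exclude 1. All 6 calls held under the 15 settings except that of Slc16a1, which held under 14. Of thymus and pLN, only thymus reached 20 CPM of Ldhb, Slc16a1 and Egln3. Pfkfb4 had 45 UMIs in thymus and 0 in pLN, at least 9.56-fold higher, and Vegfa 46 and 1 (ratio 29.3, interval 5.01 to 1183). Markers of other cell types also differed between these libraries: 6 mast cell genes summed to 136.1 CPM in thymus (Mcpt4, Cma1, Tpsb2 and Fcer1a at 0) and 1.19 CPM in pLN (the same 4 at 0), and 6 genes of αβ T cells and thymocytes to 90.7 CPM (none at 0) and 12.6 CPM (Rag1 and Rag2 at 0). With cells holding 2 or more UMIs of any list of another cell type left out, which kept 2091 thymic and 800 pLN cells, all 6 calls held.

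The difference between skin and thymus was of mixed direction. Of 23 measured members 4 were called higher in skin Vγ6 cells, where 13.7% of 5656 genes tested were, and 3 lower, where 24.5% were. With median-of-ratios scaling the calls over all genes were 1042 higher and 994 lower rather than 773 and 1385. Hk2 was 5.87 times the thymus level (5.14 to 6.71) and Hilpda 4.95 times (4.40 to 5.56). Slc2a3 stood at 3.35 times (2.10 to 5.23) and Ddit4 at 2.26 times (1.77 to 2.85). The 3 members called lower in skin were enzymes. Ldhb had 1 UMI in skin Vγ6 and 509 in thymus, 61.1-fold lower with an interval of 10.9 to 2419. Gpi1, glucose-6-phosphate isomerase, was at 87.4, 71.8, 120.6, 147.7 and 142.2 CPM in skin Vγ4, skin Vγ6, pLN, thymus and the pool, 2.06-fold lower (1.57 to 2.74), and Tpi1 was 2.00-fold lower (1.38 to 3.03). Neither Gpi1 nor Tpi1 was called with TMM or median-of-ratios scaling, and Ldhb held under all 15 settings. Slc2a3 held under 13 and lost its call in cells with a Cd163l1 UMI and with a minimum of 50 CPM. Of skin Vγ6 and thymus, only skin reached 20 CPM of Slc2a3 and only thymus reached it of Ldhb. Their place among the measured genes is therefore not independent of the direction. The median of the 6 measured hypoxia genes was 0.32 on the log2 scale and had the opposite sign, -0.23, with a minimum of 50 CPM, so the list as a whole had no stable direction here.

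In skin, Vγ4 and Vγ6 cells differed in none of the 22 measured members by the call, where 4.26% of 4973 genes tested were called higher in Vγ4 cells and 3.18% lower. With TMM scaling, 268 genes were called higher and 129 lower rather than 212 and 158. Pgk1, phosphoglycerate kinase, came closest, at 52.8 CPM in Vγ4 and 104.6 CPM in Vγ6 cells, 1.98-fold lower in Vγ4 (1.47 to 2.68), and was called under 7 of the alternative settings listed in the closing section. Slc2a3 was 1.81-fold lower (1.08 to 3.01) and Hilpda 1.55-fold lower (1.37 to 1.74), with intervals that exclude 1. Gapdh was 1.27-fold higher in Vγ4 cells (1.13 to 1.44), and Hk2 1.13-fold lower. The median log2 ratio was 0.007 for enzymes and -0.24 for hypoxia genes against -0.05 for all genes tested, and the summed hypoxia genes stood at 0.798 times the Vγ6 level (0.735 to 0.868).

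Shares within pairs of isozymes do not depend on the scaling of a library. Hk2 made up 94.0% of hexokinase UMIs (Hk1 plus Hk2) in skin Vγ4 cells (92.2 to 95.5%), 95.7% in skin Vγ6 (93.2 to 97.5%), 39.5% in pLN (33.0 to 46.2%), 79.3% in thymus (76.0 to 82.3%) and 67.3% in the pool (62.2 to 72.2%). Lymph node was the only tissue library in which Hk1 gave more UMIs than Hk2. Ldha made up 98.4%, 99.8%, 98.2% and 96.9% of Ldha plus Ldhb in skin Vγ4, skin Vγ6, pLN and the pool and 91.5% in thymus (90.8 to 92.2%), whose interval overlaps none of the others. Pfkp was the main phosphofructokinase everywhere, at 79.8% and 81.7% in the skin libraries and 71.2% and 66.2% in pLN and thymus, with Pfkl next at 16.7 to 31.0%. Among carriers, Slc16a1 made up 45.4%, 36.7%, 21.2%, 53.3% and 32.2% of Slc16a1 plus Slc16a3 in the 5 libraries. Egln1, the main HIF prolyl hydroxylase under normal oxygen, made up 47.1% of Egln1 plus Egln3 in pLN (37.1 to 57.2%) and 11.1 to 27.0% in the other libraries. The pLN interval overlaps that of the pool (18.1 to 37.4%), and the skin Vγ6 share rests on 4 of 36 UMIs (3.11 to 26.1%). Pfkm, Aldoc, Pfkfb3 and Pfkfb4 stayed below 10 CPM in every library, so their shares rest on few molecules.

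**Figure D3:**
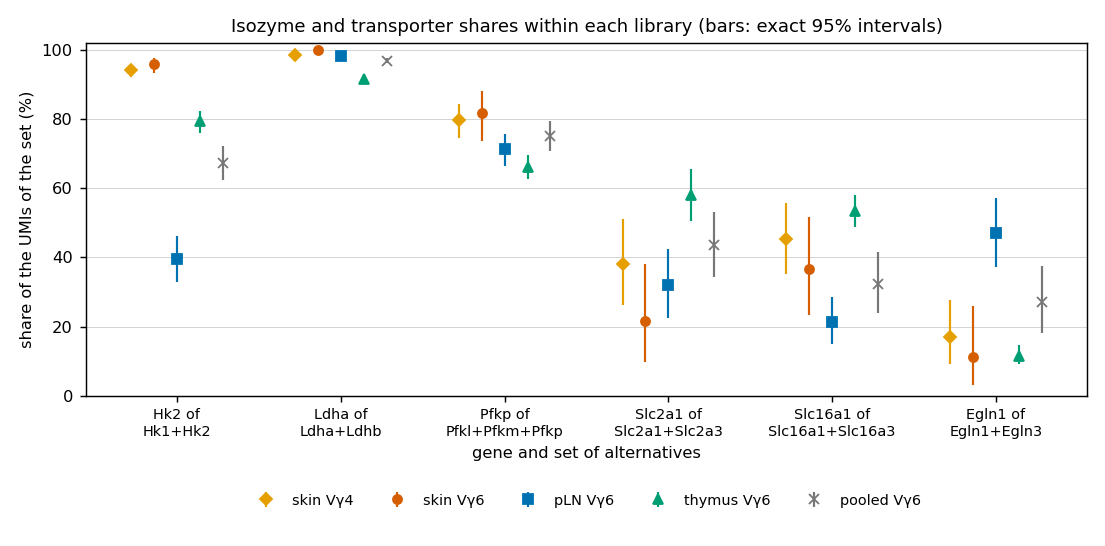
Shares of UMIs within isozyme groups in the 5 libraries in percent, with exact 95% intervals, for Hk2 (of Hk1 plus Hk2), Ldha (of Ldha plus Ldhb), Pfkp (of Pfkl, Pfkm and Pfkp), Slc2a1 (of Slc2a1 plus Slc2a3), Slc16a1 (of Slc16a1 plus Slc16a3) and Egln1 (of Egln1 plus Egln3). The Hk2 share is lowest in pLN, at 39.5%, and the Ldha share is lowest in thymus, at 91.5%.

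Cells of a library also differed among themselves, described here with no test because cells are not replicates. In pLN, 1045 cells had 2 or more cell cycle UMIs and 413 had fewer, with medians of 2144 and 1399 UMIs. Cells with 2 or more had 2.50 times the Tpi1 level of the others (1.81 to 3.55), 2.28 times the Pgam1 level, 2.06 times the Pgk1 level and 2.19 times the Slc16a3 level. Ldhb was at 0.400 times and Bnip3 at 0.405 times the level of the others. Ldhb (10.6 against 26.6 CPM) and Bnip3 (9.52 against 23.5 CPM) reached 20 CPM only in the other cells. Slc16a3 (30.8 against 14.1 CPM) did so only in cells with 2 or more. The place of these genes among the measured ones is therefore not independent of the direction. As sums, the enzymes were at 1.30 times (1.24 to 1.36) and the hypoxia genes at 0.748 times (0.654 to 0.857), so the 2 classes lay on opposite sides of 1 within lymph node cells. Splitting pLN cells at the median UMI count instead gave 1.26 for the enzymes (1.21 to 1.31) and 0.774 for the hypoxia genes (0.689 to 0.871). The part of depth in the cell cycle split was not tested. Tpi1 was also higher in cells with 2 or more cell cycle UMIs of skin Vγ4 (2.40) and of the pool (2.32).

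Cells were also split by a UMI of Cd163l1, which encodes the scavenger receptor SCART1 of IL-17-producing γδ T cells, and the libraries differed in what this split gave. The 881 thymic cells with a Cd163l1 UMI had 123.1 CPM of Hk2 and the 1636 without had 56.9 CPM, a ratio of 2.17 (1.82 to 2.58). For Hilpda the values were 186.3 and 76.5 CPM, a ratio of 2.44 (2.11 to 2.82). The 156 thymic cells with an Il17a or Il17f UMI had 2.23 times the Hk2 and 2.34 times the Hilpda level of the other 2361. In pLN the ratio by Cd163l1 lay on the other side of 1, at 0.535 for Hk2 (0.308 to 0.985) and 0.677 for Hilpda (0.372 to 1.33). In skin Vγ6 it was 1.10 for Hk2 (0.887 to 1.36) and 1.16 for Hilpda (0.957 to 1.41). By Il17a or Il17f, skin Vγ6 gave 0.838 for Hk2 (0.666 to 1.05) and 1.28 for Hilpda (1.05 to 1.55). The split therefore separated both genes by 2-fold in thymus and not in these other libraries, a difference that was not tested. In thymus immediate early genes were also higher in the cells with a UMI, at 2653 against 1696 CPM by Cd163l1 and 3825 against 1927 CPM by Il17a or Il17f, and their part was not tested.

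The pool holds Vγ6 cells of the 3 tissues prepared for 1 library, with mice of another genotype for each tissue. Each of its cells was set to the tissue library whose profile over 6040 genes gave its UMIs the highest likelihood, with members, the other pathway genes and mitochondrial genes left out. A fit is not a label, and the profiles include immediate early and cell cycle genes. Applied to the tissue libraries themselves, which also made the profiles, it returned 98.2 to 99.7% of cells to their own library. In the pool 671 cells fitted skin best, 587 pLN and 748 thymus, with 10724 CPM, 2218 CPM and 7112 CPM of immediate early genes. Hk2 was at 222.2, 17.2 and 38.2 CPM in these sets and Hilpda at 511.7, 45.3 and 172.9 CPM, both highest in the skin-fitting and lowest in the pLN-fitting cells as in the tissue libraries. Thymus-fitting cells had the most Ldhb, 39.8 CPM against 2.50 and 15.1 CPM.

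Of the 10 members called between skin and pLN, 4 were called the same way between the skin-fitting and pLN-fitting cells of the pool. Of all 2678 genes called between those libraries 53.1% were called the same way in the pool, and nearly all of them (2644) had themselves entered the fit, which the members had not. Those 4 were Hk2 (12.9, interval 7.72 to 23.0), Hilpda (11.3, 8.22 to 15.9), Hif1a (2.15) and P4ha1 (6.76). The enzymes called lower in skin were not called in the pool, with ratios of 0.927 for Tpi1, 0.594 for Eno1 (0.512 to 0.688) and 0.730 for Pgam1. Slc2a3 (1.54, interval 0.846 to 2.86), Slc16a1 (2.12, 0.720 to 6.99) and Egln3 (1.29, 0.637 to 2.65) were not called there either. The pool's pLN-fitting cells held 1889 CPM of cell cycle genes, against 4940 CPM in the pLN library. Between thymus-fitting and pLN-fitting cells, 3 of the 6 calls were made again (Hk2 at 2.21, Ldhb at 2.64 and Hilpda at 3.82) and Egln3 was at 1.29, where 33.6% of all called genes were called again. Between skin-fitting and thymus-fitting cells 5 of 7 were, with Hk2 at 5.82 and Hilpda at 2.96, where 46.4% of all called genes were. As sums, the hypoxia genes were at 1071, 438.6 and 586.2 CPM in the skin-, pLN- and thymus-fitting cells.

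**Figure D4:**
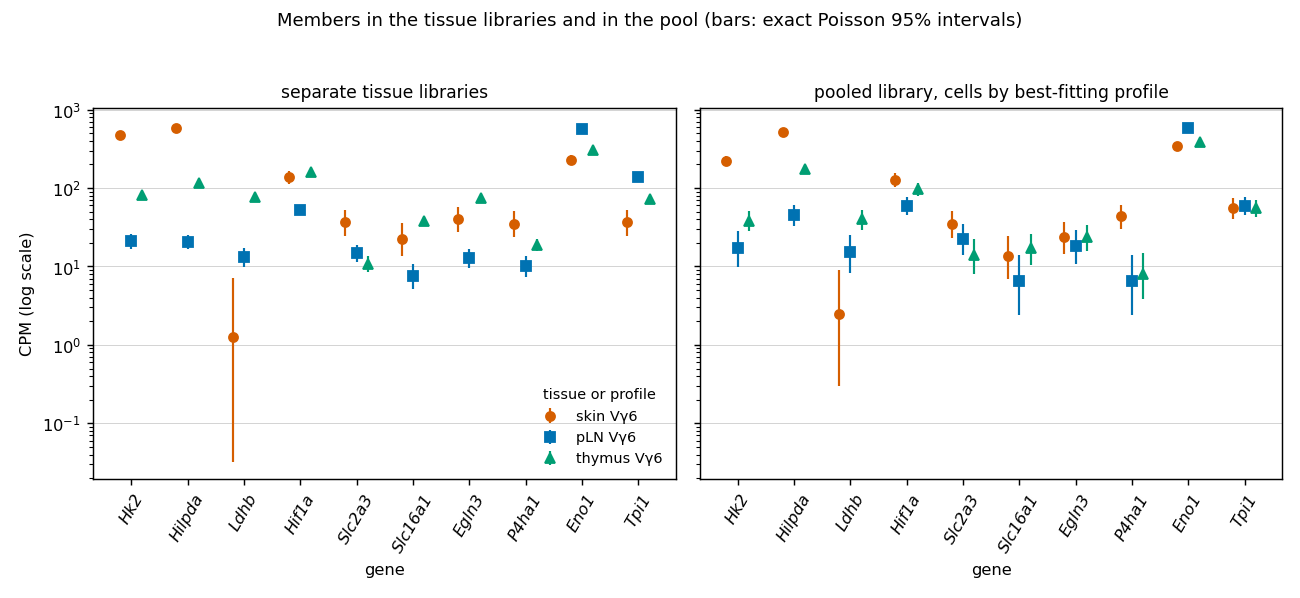
CPM of 10 members in the Vγ6 tissue libraries and in the pool's cells grouped by best-fitting tissue profile, on a log axis with exact Poisson 95% intervals. Hk2 and Hilpda fall from skin to thymus to pLN in both, while the Tpi1 gap between skin and pLN is seen in the tissue libraries (36.6 against 138.7 CPM) and hardly in the pool.

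The authors' deposited table of cluster means covers 8 clusters of Vγ6 cells, named pLN_1, pLN_2, Skin and Thy_1 to Thy_5, with each column scaled to a sum of 10000. It shows that the thymic level of these genes is uneven. In the authors' deposited table Hilpda was at 6.48 in Skin, 3.19 in Thy_2, 1.34 in Thy_4, 0.289 in pLN_1 and 0.131 in pLN_2. In Thy_1, Thy_3 and Thy_5 of the authors' deposited table Hilpda was at 0.625, 0.641 and 0.368. Hk2 followed at 4.85 in Skin, 1.66 in Thy_2, 0.243 in pLN_1 and 0.0919 in pLN_2 of the authors' deposited table. In Thy_1, Thy_3, Thy_4 and Thy_5 of the authors' deposited table Hk2 was at 0.64, 0.106, 0.62 and 0.55, so Thy_3 lay below pLN_1. Other members peaked elsewhere: in the authors' deposited table Ldhb was highest in Thy_5 (1.82, against 0.007 in Skin), Hif1a in Thy_3 (2.68) and Vegfa in Thy_4 (0.339). The summed hypoxia genes were at 11.8 in Skin and 8.45 in Thy_2 and lowest in pLN_2 at 3.50, while the summed enzymes spanned only 29.4 to 35.7 over the 8 clusters of the authors' deposited table. Immediate early genes summed to 65.9 in Skin and 42.4 in Thy_2 and to 6.49 to 37.1 in the other clusters of the authors' deposited table, and their part was not tested.

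The authors' deposited table of cluster markers lists genes of each cluster by their natural log fold change over the remaining cells, with p-values over cells that do not measure spread between animals. Genes are named here as higher or lower where the adjusted p-value over cells is below 0.05. For the Skin cluster the authors' deposited table lists Hilpda (log fold change 1.35) and Hk2 (1.28) as higher. Ldhb, Eno1, Gpi1, Bnip3l, Tpi1 and Pgam1 are lower. These are 2 and 6 of 16 listed members, where 404 and 1970 of all 5053 genes listed for that cluster in the authors' deposited table are. The share of members that are lower is thus near that of all listed genes. Thy_2 has Hilpda (0.589), Pfkp, Hk2, Hif1a and Ldha as higher, 5 of 10 listed members where 406 of all 2367 listed genes are in the authors' deposited table. Thy_5 has Ldhb (0.674), Gapdh, Tpi1 and Slc16a1 as higher, 4 of 12 listed members where 936 of all 2887 listed genes are in the authors' deposited table. The share for Thy_5 is near that of all its listed genes. The cluster pLN_2, with the highest cell cycle sum of 79.7, has Eno1, Ddit4, Tpi1, Pgam1, Gapdh, Pgk1 and Hk1 as higher and Hilpda and Hk2 as lower in the authors' deposited table, 7 and 2 of 14 listed members where 2684 and 281 of all 5119 listed genes are. Clusters were made from the expression of the same cells, so these differences are descriptions.

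**Figure D5:**
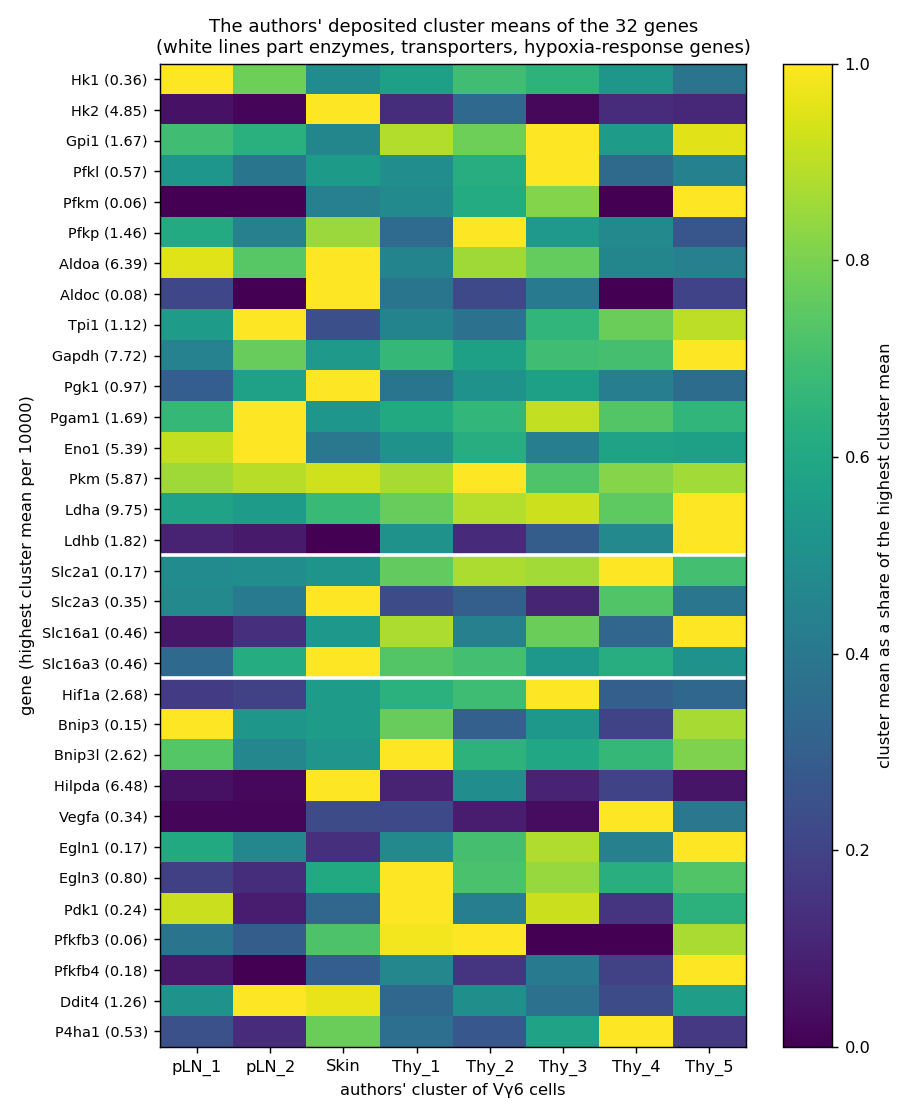
The authors' cluster means of the members in 8 Vγ6 clusters, each gene shown as a share of its highest cluster mean. Hk2 and Hilpda are brightest, which marks the highest share, in Skin with Thy_2 next, and Ldhb is brightest in Thy_5.

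Other genes of the pathway were read from 5 lists of 90 genes in all, all matched. Between skin Vγ6 and pLN, 8 of 16 measured other hypoxia-response genes (of 27) were called higher and 3 lower, where 16.0% and 30.4% of all genes tested were, with a median log2 ratio of 0.89. Of 7 measured genes of the pentose phosphate pathway, which branches from glycolysis to make NADPH and ribose, none was called higher and 5 were called lower, against the same 30.4%, with a median of -1.34. None of 6 measured genes of pyruvate entry into mitochondria was called in any of the 4 comparisons. Of 10 measured HIF subunits and upstream regulators 2 were called higher and 1 lower, and of 4 measured other isozymes and carriers 2 and 1. The named extremes were Ier3, an early stress response gene, at 403.3 times the pLN level from 1 UMI there (70.2 to 16136), Bhlhe40, a transcriptional repressor induced by hypoxia and by activation, at 39.4 times, and Nfil3, a transcription factor, at 11.5 times. At the other end Minpp1 was 6.22-fold lower, Taldo1, transaldolase of the pentose phosphate pathway, 3.34-fold lower and Rbx1, a subunit of the ligase that degrades HIF-1α, 2.93-fold lower. Between thymus and pLN, 6 of 15 measured other hypoxia-response genes were called higher and 3 lower, where 11.8% and 11.3% of all genes were, led by Bhlhe40 (6.67), Mxi1 (5.77) and Ndrg1 (5.28), with Stc2 4.33-fold and Ero1l 2.52-fold lower. Txnip, which restrains glucose uptake and belongs to the list of HIF and upstream regulators, was 2.57-fold lower. Between skin and thymus 6 of 15 were called higher and 2 lower, where 13.7% and 24.5% of all genes were. Ier3 stood at 42.2 times the thymus level, Slc2a6, a hexose carrier, at 17.7 times and Bhlhe40 at 5.91 times, while Minpp1 was 9.73-fold, Fam162a 2.90-fold and Taldo1 2.74-fold lower. Of that hypoxia-response list, 0 of 15 were called between skin Vγ4 and Vγ6 cells. In that last comparison Arnt, the partner subunit of HIF-1α, was the 1 gene of the 5 lists called, 3.28-fold higher in Vγ4 cells (1.30 to 10.7). Of all genes tested there, 4.26% were called higher and 3.18% lower. Arnt had 40 UMIs in Vγ4 and 5 in Vγ6 cells, or 20.7 and 6.30 CPM, so it passed the 20 CPM minimum narrowly and only in Vγ4 cells.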

How the data were processed

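The deposited files hold raw UMI counts per gene and cell barcode for 5 libraries. Cell Ranger 2.0, Seurat 2.3 and the build mm10 are named in the submitters' processing notes, with no role or setting given. The authors also deposited cluster means of Vγ6 cells, normalised and scaled to 10000 per cluster, and a marker table with natural log fold changes and p-values over cells.

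Barcodes with at least 200 genes and at most 10% mitochondrial UMIs were kept, doublets were not removed, and counts were summed per library and divided by the library total (CPM). Ratios have exact conditional binomial 95% intervals, levels exact Poisson and shares exact Clopper-Pearson intervals, all for counting error only, and log2 ratios add 1 CPM. Calls need 2-fold, an interval excluding 1 and 20 CPM in the higher library. With 1 library per group nothing was tested. The calling was tested on simulated counts with counting error alone, which cannot show how it fares with spread between cells, animals or preparations. Scripts used Python 3.11.15, numpy 2.4.6, scipy 1.17.1 and pandas 2.3.3, and edgeR 4.0.16 in R 4.3.3 for TMM factors. In each of 4 comparisons 15 alternatives were run. The members and lists were chosen with earlier results of these data known. All members are named, and of the other lists up to 3 called genes each way per comparison, ranked by the interval bound nearest to 1. Gene positions are from GENCODE M21 (GRCm38, the assembly of mm10) and promoters from RefSeq.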

Additional observations from a re-analysis of the deposited data

How the results depend on the processing

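Under 15 alternatives in each comparison, 214 of 240 summary values stayed within the margin set for them and 26 moved, no member took the opposite call, and 13 of 23 member calls held under all of them. Between skin Vγ6 and pLN, the enzyme median was -0.61 with at most 5% mitochondrial UMIs, and with a minimum of 50 CPM the hypoxia median was 1.07 and 3 members were called higher. Between thymus and pLN, 1 member was called lower after thinning to 500 UMIs (Slc2a3) and 2 without cells holding cell cycle UMIs (Hk1, Bnip3). The enzyme median was 0.24 without cells holding markers of other cell types. The hypoxia median was 0.79 without cells holding cell cycle UMIs, 1.27 without the 5% of cells with most UMIs and 0.81 with no CPM minimum. Between skin and thymus, 1 member (Ldhb) was called lower with at least 500 genes per cell, with TMM or median-of-ratios scaling, without cells holding markers of other types or cell cycle UMIs, and without the cells with most UMIs. The hypoxia median there was -0.23 with a minimum of 50 CPM. Between skin Vγ4 and Vγ6 cells, with at most 5% mitochondrial UMIs 2 members were called higher (Hk1, Gpi1) and 3 lower (Pgk1, Slc2a3, Slc16a3), and with no CPM minimum 1 was called higher (Ldhb) and 1 lower (Bnip3). Pgk1 was the 1 member called lower with at least 500 genes, the mean over cells, thinning, cell cycle cells left out, only Vγ6 cells with a Cd163l1 UMI, and shared barcodes left out. A minimum of 50 CPM leaves fewer members measured. For the others the cause was not tested. TMM scaling moved the median log2 ratio of all genes between thymus and pLN from -0.13 to 0.0002 and between skin Vγ4 and Vγ6 from -0.05 to 0.05, and median-of-ratios scaling that between skin and thymus from -0.27 to -0.008. No paired analysis was possible because each group has 1 library. The depth limits members with few UMIs, such as Vegfa and Pfkfb4, most of all in skin Vγ6 cells.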
